A study of Mus musculus with 6 samples.

Results

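Bone morphogenetic proteins (BMPs) are secreted signals of the TGF-beta family, and 10 genes of their pathway were followed here in the embryonic mouse kidney: the ligand genes Bmp2, Bmp4, Bmp5 and Bmp7, the extracellular modulator genes Bmper and Grem1, and Smad6, Id1, Id2 and Id3, which respond to the signal. They were taken by gene symbol from the full gene table of the series, which held 9 of the 10 among its 13203 genes. Grem1, which encodes an antagonist of BMPs, was not analysed here. RNA was taken from whole kidneys at stage E17.5, depleted of ribosomal RNA and sequenced. The control group was 3 kidneys labelled Brg1 flx/flx, and the mutant group was 3 kidneys labelled Six2Cre Brg1flx/flx. Both groups therefore carry floxed alleles of Brg1, the gene Smarca4 whose product is the ATP-burning motor of SWI/SNF chromatin remodellers, and only the mutant labels name the Cre recombinase. Six2 marks the nephron progenitors, so the deletion is directed at these cells and their descendants, whereas the RNA comes from all cells of the organ. Effects of Six2Cre and of the deletion cannot be told apart.

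A BMP dimer binds a complex of type I and type II receptors, which phosphorylate SMAD1, SMAD5 and SMAD9. These join SMAD4 in the nucleus and switch on target genes, among them the ID genes and Smad6, whose product feeds back to inhibit the pathway. In the developing kidney Bmp7 is made in the nephron progenitors and the ureteric epithelium and is needed to keep the progenitors alive. Bmp4 is made in the mesenchyme around the ureter, where it restrains branching and promotes smooth muscle.

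Expression was given as normalised coverage, the sequenced bases over each gene scaled by the authors to a common library total, and is printed in kb (1000 scaled bases). It is not divided by gene length. Summed over the genes of the table, the bases before scaling came to 726 to 1126 Mb in control and 934 to 1209 Mb in mutant libraries. These totals were inferred from the spacing of the low values and leave out genes that are not in the table. Means are given ± SD with n = 3, fold changes are mutant over control, computed in limma from log2(value + 1) and given with their standard error (SE), and a gene was called at a limma adjusted p under 0.05 over all 13203 genes. The targeted gene Smarca4 fell by 0.42 on the log2 scale (SE 0.10, adjusted p = 0.00481), with 371 to 434 kb in control and 268 to 333 kb in mutant. A gene is in the table only if at least 1 group mean exceeds 3400 scaled bases. Bmp2 passed this minimum through the control group only and Bmp5 through the mutant group only, so a difference was built into their presence in the table, and the counts below are not support for a change of the pathway. The other 7 genes passed in both groups.

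Bmp7 and Bmp2 were lower in the mutant kidneys, Bmp5 and Id3 were higher, and Bmp4, Bmper, Smad6, Id1 and Id2 were not called. Thus 4 of the 9 genes were called, where 46.1% of all genes were. Of these 2 rose, where 21.5% of all genes did, and 2 fell, where 24.6% did. The shares of the members are near those of the whole table. For the same 4 genes the mutant libraries lay all above the control libraries (2 genes, against 26.5% of all genes) or all below them (2 genes, against 29.8%), together 56.4% of all genes. An exact two-sided permutation test of 3 against 3 values cannot go below p = 0.1, and these 4 genes reached that value.

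**Figure D1:**
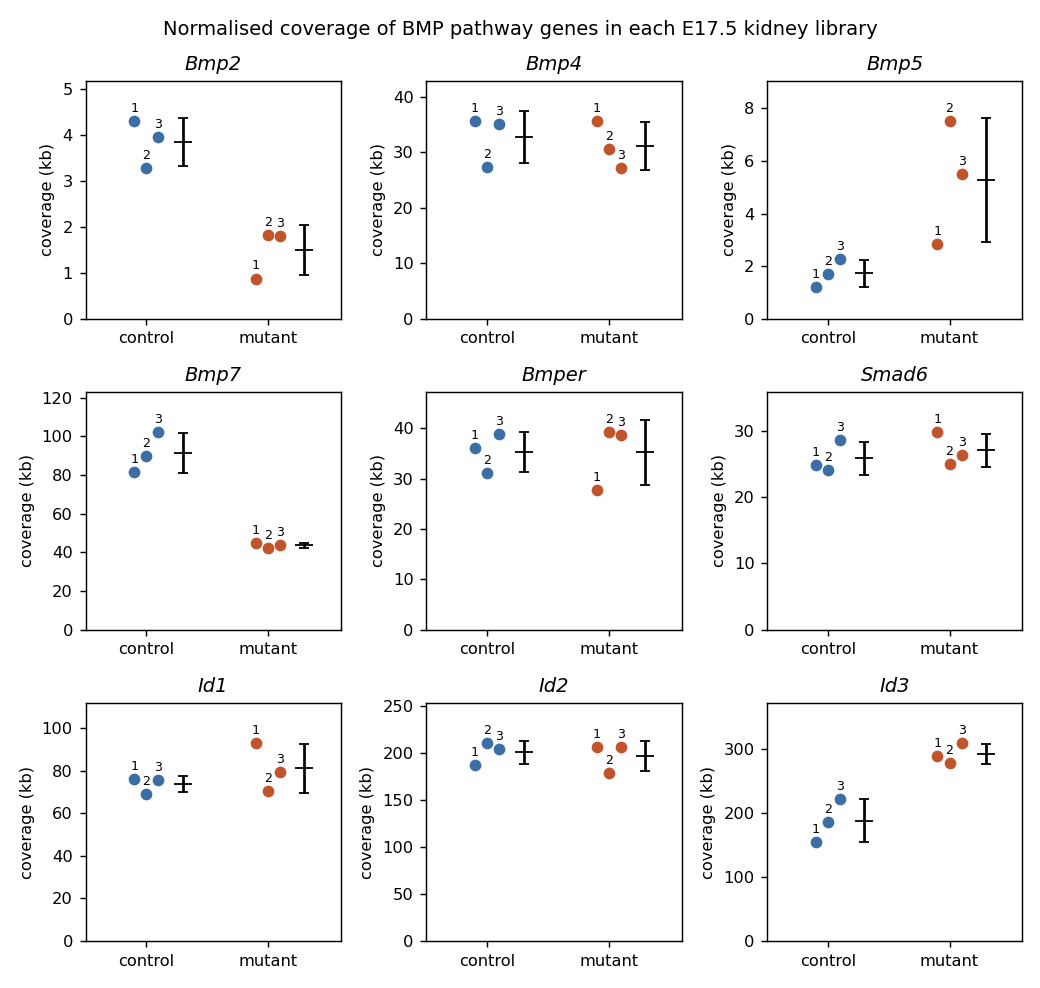
Normalised coverage in kb of the 9 genes, with 1 point per library (number = running number in its group) and the mean ± SD (n = 3) as a black bar beside it. The mutant points of Bmp7 lie between 42.1 and 44.9 kb, below all control points, and those of Id3 lie above all control points, while the groups of Bmp4, Bmper, Smad6, Id1 and Id2 overlap.

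Among the ligand genes followed here Bmp7 was the most abundant in control and fell to 0.479 of its control mean. Bmp7 (ENSMUSG00000008999.7, chromosome 2, 172868012 to 172940321, minus strand, mm10) had 81.8, 89.8 and 102 kb in control libraries con1 to con3 and 44.9, 42.1 and 44.1 kb in mutant libraries mut1 to mut3. The groups were far apart, and the mutant libraries differed little from each other. The mean went from 91.3 ± 10.4 to 43.7 ± 1.42 kb, a log2 fold change of -1.06 (SE 0.10, limma adjusted p = 1.37e-05). This call held under all 15 other settings tried.

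Bmp4 (ENSMUSG00000021835.15, chromosome 14, 46383520 to 46390669, minus strand) did not share that fall. Its coverage was 35.7, 27.3 and 35.2 kb in control and 35.7, 30.5 and 27.2 kb in mutant. The highest and the lowest libraries of the groups nearly coincide. The log2 fold change was -0.07 with a 95% confidence interval of -0.38 to 0.24 (limma adjusted p = 0.715), an interval that does not reach the fall of Bmp7. Within each library the log2 ratio of Bmp4 to Bmp7, which does not depend on how the library was scaled, was -1.20, -1.72 and -1.54 in control and -0.33, -0.46 and -0.70 in mutant. All mutant ratios were above all control ratios. The mean ratio was -1.49 ± 0.27 in control and -0.50 ± 0.19 in mutant, a difference of 0.99 or 1.98-fold (exact permutation p = 0.1, the smallest possible; n = 3 each).

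Bmp2 (ENSMUSG00000027358.6, chromosome 2, 133552159 to 133562885, plus strand), the closest relative of Bmp4 in the family, was a low ligand and fell. It had 4.31, 3.27 and 3.96 kb in control and 0.874, 1.81 and 1.80 kb in mutant. Mutant library mut1 was the lowest, and the groups did not overlap. Before scaling these values stand for 2480 to 4569 sequenced bases in control and 835 to 2244 in mutant, so few reads lie behind them. The log2 fold change was -1.43 (SE 0.41, limma adjusted p = 0.0143). The call was lost without control library con1 (-1.34, adjusted p = 0.0627, over a range of 0.00843 to 0.0627 among its alternatives). Relative to Bmp7 in the same library, Bmp2 had overlapping groups, with log2 ratios of -4.57 ± 0.28 in control and -4.95 ± 0.64 in mutant (exact permutation p = 0.6, n = 3 each). Relative to Bmp4 it was lower in all mutant libraries, with -3.09 ± 0.06 in control and -4.45 ± 0.79 in mutant (exact permutation p = 0.1, the smallest possible). Bmp2 is in the table through the control group only, so this separation is partly built in and is a description only.

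Bmp5 (ENSMUSG00000032179.7, chromosome 9, 75775364 to 75900310, plus strand), the closest relative of Bmp7 among these ligands, went the other way. Coverage was 1.21, 1.70 and 2.26 kb in control and 2.83, 7.54 and 5.50 kb in mutant. All mutant libraries were higher, but mut1 lay close to con3 and the mutant libraries spread widely. The mean went from 1.72 ± 0.53 to 5.29 ± 2.36 kb, a log2 fold change of 1.55 (SE 0.42, limma adjusted p = 0.0110). The call was lost without mutant library mut2 (1.24, adjusted p = 0.0566, over a range of 0.00317 to 0.0566 among its alternatives). In the authors' deposited table Bmp5 has a ratio of 3.07, a p of 0.0632 and a q of 0.0387. Of the 3822 exon bases of Bmp5, 1878 are shared with exons of Gm26903 on the opposite strand, and because the use of strand in counting is not given in the sources used here, reads of the 2 genes cannot be told apart. Before scaling Bmp5 rested on 895 to 2605 bases in control and 2704 to 9334 in mutant.

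**Figure D2:**
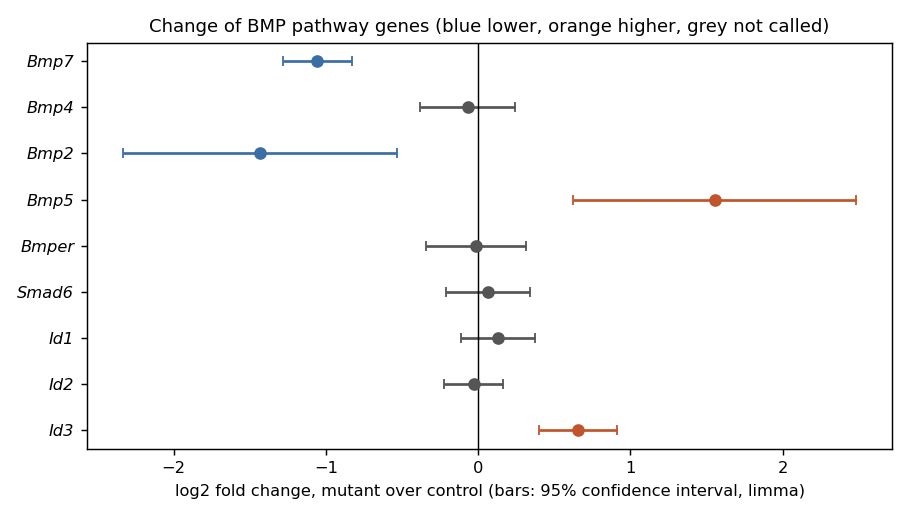
Log2 fold change of mutant over control kidneys for the 9 genes, with limma 95% confidence intervals. Bmp7 and Bmp2 lie left of 0, Bmp5 and Id3 right of it, and the intervals of Bmp2 and Bmp5 are the widest of the 9, while those of the 5 genes that were not called include 0.

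Levels of different genes can be compared only per length. Coverage per exon base (scaled bases divided by the merged exon length in GENCODE M21) ordered the control kidneys as Id3 (147 ± 26.2), Id2 (82.4 ± 5.05), Id1 (63.5 ± 3.37), Bmp7 (24.9 ± 2.83), Bmp4 (15.9 ± 2.28), Bmper (9.31 ± 1.04), Smad6 (8.68 ± 0.84), Bmp2 (1.08 ± 0.15) and Bmp5 (0.451 ± 0.138). Of the neighbours in this order only Bmper and Smad6 had overlapping libraries. In the mutant kidneys the order of the means differed in places. Bmp4 (15.1 ± 2.08) stood above Bmp7 (11.9 ± 0.39), with libraries at 13.2 to 17.3 against 11.5 to 12.2 per exon base. Bmp5 (1.38 ± 0.62) stood above Bmp2 (0.421 ± 0.151), at 0.740 to 1.97 against 0.246 to 0.510. Neither pair overlapped in either group. The change of places of Bmp2 and Bmp5 is a description only, since each of these genes is in the table through the group where it is high, and Bmp5 shares exon bases with Gm26903. In mutant libraries Id2 and Id1 overlapped, as did Bmper and Smad6.

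**Figure D3:**
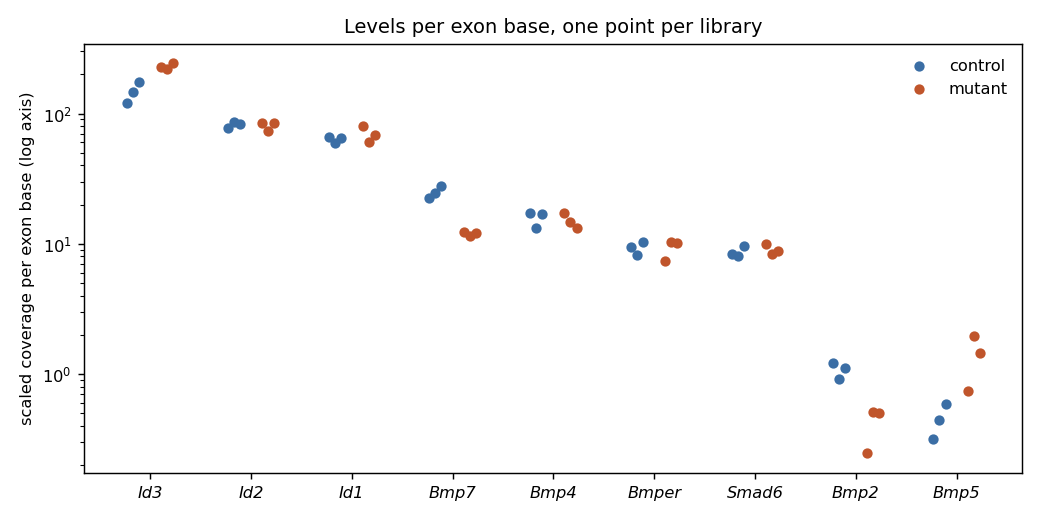
Scaled coverage per exon base on a log axis, with 1 point per library, for the 9 genes in the order of their control means. The ID genes stand highest in both groups, while Bmp7 lies above Bmp4 in control and below it in mutant, and Bmp2 and Bmp5 are the lowest genes in both groups.

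Summed per exon base over the 4 ligand genes, coverage was 42.3 ± 3.93 in control and 28.8 ± 1.69 in mutant. Libraries ranged from 39.1 to 46.7 in control and from 27.1 to 30.5 in mutant and did not overlap. Bmp7 held 58.9 ± 4.29% of this sum in control and 41.4 ± 2.47% in mutant. The share of Bmp4 went from 37.5 ± 4.19 to 52.2 ± 4.12%, that of Bmp5 from 1.06 ± 0.26 to 4.86 ± 2.25% and that of Bmp2 from 2.57 ± 0.33 to 1.48 ± 0.59%. Among these 4 genes Bmp4 thus took the place of Bmp7 as the one with the largest share in all 3 mutant libraries. This order rests on the GENCODE M21 exon lengths, 3670 bases for Bmp7 and 2064 for Bmp4. The annotation behind the coverage is not given in the sources used here. Before division by length, coverage of Bmp7 was above that of Bmp4 in all 3 mutant libraries. The shifts in share of Bmp2 and Bmp5 are a description only, since each is in the table through the group where it is high. Bmp5 also shares exon bases with Gm26903. Other ligand genes in the table are left out, so the sum is not the total of BMP ligands. Some of them rose and 0 were called lower. Gdf7 had means of 10.6 kb in control and 32.0 kb in mutant over 1423 exon bases, fewer than the 2064 of Bmp4.

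Bmper (ENSMUSG00000031963.8, chromosome 9, 23223076 to 23485200, plus strand) encodes a secreted protein that binds BMPs and can restrain or favour their signal. It had 36.0, 31.1 and 38.8 kb in control and 27.7, 39.3 and 38.7 kb in mutant. Mutant libraries mut2 and mut3 were at the upper end of the control range or above it, and mut1 was below it. The log2 fold change was -0.01 with a 95% interval of -0.34 to 0.31 (limma adjusted p = 0.946). The log2 ratio of Bmper to Bmp4 within a library was 0.11 ± 0.09 in control and 0.17 ± 0.47 in mutant (exact permutation p = 1, n = 3 each).

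Of the target genes, Id3 rose and the others were not called. ID proteins are helix-loop-helix proteins that lack a DNA-binding region and hold back the differentiation factors they pair with. Id3 (ENSMUSG00000007872.3, chromosome 4, 136143497 to 136145755, plus strand) had 155, 186 and 222 kb in control and 289, 279 and 309.6 kb in mutant. The lowest mutant library was above the highest control library, con3. The mean rose from 188 ± 33.4 to 292 ± 15.8 kb, a ratio of 1.56, with a log2 fold change of 0.65 (SE 0.12, limma adjusted p = 0.000887), and the call held under all 15 other settings tried.

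Id1 (ENSMUSG00000042745.9, chromosome 2, 152736251 to 152737410, plus strand) had 76.3, 69.2 and 75.6 kb in control and 93.1, 70.5 and 79.6 kb in mutant. Mutant library mut2 lay within the control range, and the groups overlapped. The log2 fold change was 0.13 (95% interval -0.11 to 0.37, limma adjusted p = 0.360). Id2 (ENSMUSG00000020644.9, chromosome 12, 25093799 to 25097140, minus strand) had 187, 211 and 204 kb in control and 206, 179 and 206 kb in mutant. Its groups overlapped, at a log2 fold change of -0.03 (95% interval -0.22 to 0.17, limma adjusted p = 0.815).

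The ID genes differed from each other in the same libraries. The log2 ratio of Id3 to Id2 was -0.27, -0.18 and 0.12 in control and 0.48, 0.64 and 0.59 in mutant, a difference of 0.68. That of Id3 to Id1 was 1.34 ± 0.28 in control and 1.86 ± 0.20 in mutant, a difference of 0.52 (exact permutation p = 0.1 for both ratios, n = 3 each, the smallest possible). Neither ratio overlapped between the groups, whereas Id1 to Id2 did, at -1.45 ± 0.16 and -1.29 ± 0.12 (exact permutation p = 0.3). These ratios among the ID genes were chosen after values were seen and are a description only. Per exon base Id3 made up 49.9 ± 3.92% of the 3 ID genes in control and 60.3 ± 2.20% in mutant. Their sum was 293 ± 29.4 in control and 379 ± 23.8 in mutant. The planned log2 ratio of Id1 to Bmp4, target over ligand, overlapped between groups at 1.18 ± 0.14 and 1.38 ± 0.17 (exact permutation p = 0.2).

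Smad6 (ENSMUSG00000036867.7, chromosome 9, 63953076 to 64022059, minus strand), the inhibitory SMAD, was nearly level. It had 24.8, 24.0 and 28.6 kb in control and 29.8, 24.9 and 26.3 kb in mutant. The groups overlapped, with a log2 fold change of 0.07 (95% interval -0.21 to 0.34, limma adjusted p = 0.700). Relative to Id3 in the same library Smad6 was lower in all mutant libraries, with a log2 ratio of -2.85 ± 0.18 in control and -3.44 ± 0.15 in mutant (exact permutation p = 0.1, n = 3 each). This ratio too was chosen after values were seen.

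**Figure D4:**
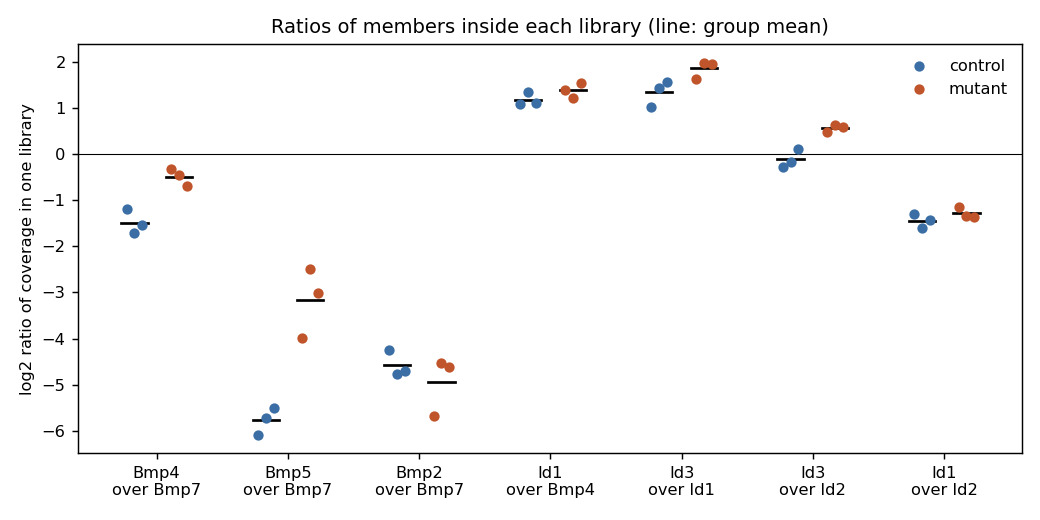
Log2 ratio of coverage between pairs of genes inside each library, with 1 point per library and the group mean as a line. Mutant points lie above all control points for Bmp4 over Bmp7, Bmp5 over Bmp7, Id3 over Id1 and Id3 over Id2, and the groups overlap for Bmp2 over Bmp7, Id1 over Bmp4 and Id1 over Id2. Bmp5 is in the table through the mutant group only and Bmp2 through the control group only, so their ratios are a description only. Only Bmp4 over Bmp7 and Id1 over Bmp4 were planned.

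The sequences before the annotated starts of 3 of these genes are shown to set Bmp5, which rose, beside Bmp4 and Smad6, which were not called. Windows of Bmp7 and Bmp2, which fell, were not used here. Each is the 250 bases before the RefSeq start on GRCm38.p6 (mm10), 5′ to 3′ on the strand of the gene. Capitals mark matches, on either strand, to the palindrome GGCGCC, to the related GC-rich motif GGAGCC or to the short SMAD box CAGAC, which SMAD proteins are known to bind.
Bmp5 (chr9:75775115-75775364, plus strand): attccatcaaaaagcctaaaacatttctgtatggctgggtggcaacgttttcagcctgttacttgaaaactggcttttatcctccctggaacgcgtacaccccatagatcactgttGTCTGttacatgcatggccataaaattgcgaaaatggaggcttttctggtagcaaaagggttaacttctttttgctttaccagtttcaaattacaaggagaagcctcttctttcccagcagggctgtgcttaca
Bmp4 (chr14:46390670-46390919, minus strand): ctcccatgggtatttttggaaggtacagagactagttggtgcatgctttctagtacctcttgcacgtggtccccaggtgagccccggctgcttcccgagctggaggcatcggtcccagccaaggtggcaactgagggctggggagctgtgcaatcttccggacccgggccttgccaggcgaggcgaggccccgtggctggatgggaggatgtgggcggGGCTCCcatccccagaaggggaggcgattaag
Smad6 (chr9:64022060-64022309, minus strand): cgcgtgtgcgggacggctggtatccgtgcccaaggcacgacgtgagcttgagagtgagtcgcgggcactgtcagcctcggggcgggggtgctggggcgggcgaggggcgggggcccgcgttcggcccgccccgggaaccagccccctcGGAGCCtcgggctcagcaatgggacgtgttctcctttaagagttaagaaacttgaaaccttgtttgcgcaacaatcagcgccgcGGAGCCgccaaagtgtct
The Bmp5 window held 1 CAGAC match, that of Bmp4 held 1 GGAGCC match and that of Smad6 held 2 GGAGCC matches. Over all 32851 such windows 9.59% held GGCGCC, 26.0% GGAGCC and 42.2% CAGAC, so matches of this kind are common. The Bmp5 window had 42.8% G and C bases, against 63.2% for Bmp4, 66.8% for Smad6 and a median of 52.4% over all windows. The windows of Id3 and Id2 lie wholly or partly in exons of GENCODE transcripts of these genes and are not shown. The window of Bmper, which was not called, is not shown either and held 3 GGAGCC matches and 71.6% G and C bases. That of Grem1, which was not analysed here, is also left out. A match describes the letters only, since binding was not measured.

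Cell type markers moved strongly between the groups. For the marker counts here and in the next paragraph, 21.5% of all genes rose and 24.6% fell. In bulk RNA fewer cells of a type and less RNA per cell cannot be told apart. Of 11 nephron progenitor markers 8 fell and 1 rose, and their summed coverage was 636 to 709 kb in control and 311 to 435 kb in mutant. All 7 podocyte markers and 6 of 7 markers of loop and distal tubule fell, with sums of 1062 to 1197 and 570.5 to 677 kb in control and 392 to 459.8 and 311 to 334 kb in mutant. All 9 proximal tubule markers fell too, from sums of 3489.5 to 4392 kb to 846 to 1043 kb. The log2 ratio of Bmp7 to the summed progenitor markers overlapped between groups (-2.87 ± 0.21 and -3.15 ± 0.29), and so did its ratio to the loop and distal tubule markers (-2.78 ± 0.05 and -2.89 ± 0.09). Its ratio to the podocyte markers was higher in all mutant libraries, by 0.33, and so was its ratio to the proximal tubule markers, by 0.99. Its ratio to the markers of ureteric tip and collecting duct was lower in all of them, by a log2 difference of -1.19. Of those 10 ureteric markers 3 rose and 2 fell, near the shares of all genes. The part of these cells in the fall of Bmp7 was not tested.

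Markers of stroma and muscle were higher in the mutant kidneys, as Bmp5 and Id3 were. All 10 stromal markers rose, from sums of 1310 to 1371 kb in control to 3945 to 4571 kb in mutant, and 6 of 9 markers of smooth muscle and mural cells rose, from 790.0 to 887 to 1226 to 1666 kb. The log2 ratio of Bmp5 to the stromal sum overlapped between groups (-9.64 ± 0.46 and -9.75 ± 0.75). It also overlapped for the sums of smooth muscle and mural cells, urothelium, leukocytes and erythroid cells, so overlap does not single out stroma. The log2 difference was -0.11 for stroma and 0.81 for smooth muscle and mural cells. It was 0.28 for urothelium, 0.47 for leukocytes and 0.52 for erythroid cells. The ratio of Id3 to the stromal sum differed by -1.01 between groups that did not overlap, lower in mutant. The ratio of Id3 to the smooth muscle and mural sum overlapped (-2.15 ± 0.18 and -2.23 ± 0.18). Its ratio to the urothelial sum overlapped too (1.37 ± 0.55 and 0.76 ± 0.17), so overlap does not single out smooth muscle. The log2 difference was -0.08 for smooth muscle and mural cells and -0.61 for urothelium. Overlap at n = 3 does not show that a gene follows a cell type. Bmp4, a gene of mesenchyme, was lower relative to the stromal sum in all mutant libraries, at -7.09 ± 0.27 against -5.36 ± 0.25. The same held for Bmp2, Bmp7, Bmper, Smad6, Id1, Id2 and Id3, so Bmp4 does not stand out in this. Bmper, for example, was at -6.92 ± 0.29 in mutant against -5.25 ± 0.20 in control. Leukocyte markers (4 of 6 rose), erythroid markers (5 of 6) and urothelial markers (5 of 8) were higher as well, and of 8 endothelial markers 4 rose and 1 fell. The part of these cells in the rise of Bmp5 and Id3 was not tested.

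Beyond the 9 genes, 56 of 78 other listed pathway genes were in the table, of which 29 rose (51.8%, against 21.5% of all genes), 6 fell (10.7%, against 24.6%) and 21 were not called. Their median log2 fold change was 0.41, against -0.03 over all genes. Of the 56 genes 4 were in the table through 1 group only. The lists were chosen with earlier results of these data known. These shares and those of each list below therefore describe the genes and are not support for a change of the pathway.

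The SMADs that carry the signal rose in all 4 cases, where 21.5% of all genes did. Smad1 had 32.3, 37.9 and 34.9 kb in control and 66.4, 64.5 and 56.9 kb in mutant (log2 fold change 0.84, SE 0.11, limma adjusted p = 9.55e-05). Smad9 rose by 0.83, Smad5 by 0.46 and Smad4, the partner shared with the TGF-beta branch, by 0.32. In each of the 4 genes every mutant library was above every control library, which held for 26.5% of all genes. The call of Smad4 was lost without the variance trend (adjusted p = 0.0590) and without con1 (0.0842), con2 (0.0585), mut3 (0.0757) or mut2 (0.0819), and its alternatives ran from 0.00304 to 0.0842.

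Of 12 genes for BMP receptors and co-receptors 7 rose (58.3%, against 21.5% of all genes), 1 fell (8.33%, against 24.6%) and 4 were not called, with a median log2 fold change of 0.47. Acvr2b, a type II receptor shared with activins, was the gene that fell, from 28.0 to 36.3 kb in control to 12.0 to 16.5 kb in mutant (-1.18, SE 0.16, limma adjusted p = 0.000125). Rgma, a membrane-anchored co-receptor, rose by 1.14, and the type I receptor genes Acvrl1 of endothelium and Acvr1 rose by 0.66 and 0.57. The call of Acvr1 was lost without con2 (adjusted p = 0.0712), con3 (0.0522), mut3 (0.0631) or mut2 (0.0701), and its alternatives ran from 0.00959 to 0.0712. Bmpr1a (0.17, adjusted p = 0.188) and Bmpr2 (0.25, adjusted p = 0.0680) were not called, whereas Bmpr1b rose by 0.52 (limma adjusted p = 0.00615).

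Of the 7 genes that the table holds from the list of other ligands, 4 rose (57.1%, against 21.5% of all genes) and 3 were not called. One of the 4 is Bmp1 (0.68), which encodes a procollagen protease and no BMP ligand, so 3 of 6 ligand genes rose. Gdf1, which was not called, was in the table through 1 group only. Gdf7 rose most, from 9.44 to 12.5 kb in control to 24.9 to 38.3 kb in mutant (log2 fold change 1.58, limma adjusted p = 3.80e-05), followed by Bmp6 (1.03) and Gdf10 (1.02). Bmp1 also stands in the list of secreted modulators, because its protease cleaves the antagonist chordin.

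Of 13 other secreted modulators 7 rose (53.8%, against 21.5% of all genes), 2 fell (15.4%, against 24.6%) and 4 were not called, with a median log2 fold change of 0.65. Of the 13 genes 3 were in the table through 1 group only, among them Vwc2 and Sost, which are counted as called. Chrd, which encodes chordin, rose most, from 3.87, 5.84 and 5.62 kb in control to 18.4, 15.0 and 18.5 kb in mutant (1.77, SE 0.21, limma adjusted p = 4.67e-05), and Vwc2, a chordin-like gene in the table through the mutant group only, rose by 1.42. Sostdc1, which encodes an antagonist of BMP and WNT signals made in renal epithelium, fell from 95.2, 105 and 139 kb to 40.1, 42.1 and 35.5 kb (-1.51, SE 0.14, adjusted p = 8.11e-06). Its relative Sost, in the table through the control group only, was at 3.98 to 4.09 kb in control and 0.352 to 1.03 kb in mutant (-2.80, SE 0.53). Antagonist genes therefore changed in both directions.

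Of 10 inhibitors inside the cell or at its membrane 2 rose and 2 fell, shares near those of all genes (21.5% and 24.6%), and 6 were not called, with a median log2 fold change of 0.01. Smurf1, a ubiquitin ligase for BMP SMADs, rose by 0.63 and the corepressor gene Ski by 0.34, while the phosphatase gene Ppm1a changed by -0.37 and Tob1 by -0.35. The call of Tob1 was lost in 9 of its 15 other settings, over a range of adjusted p from 0.0205 to 0.145. Smad7, the other inhibitory SMAD gene, was not called (-0.11, limma adjusted p = 0.449).

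Of 14 other target genes in the table, 3 of which also stand in the lists of inhibitors and modulators, 6 rose (42.9%, against 21.5% of all genes), 1 fell (7.14%, against 24.6%) and 7 were not called. Their median log2 fold change was 0.36. The transcription factor genes Gata2 (1.23), Zfp423 (1.08) and Tbx3 (1.06) rose, and Hey1, which is also a NOTCH target, fell by 0.98. Gata2 went from 60.8, 57.1 and 65.6 kb to 168, 121 and 144 kb (limma adjusted p = 1.30e-05). The fourth ID gene, Id4, rose as well, by 0.42 (adjusted p = 0.0318), from 20.3 to 29.1 kb to 31.8 to 35.7 kb.

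**Figure D5:**
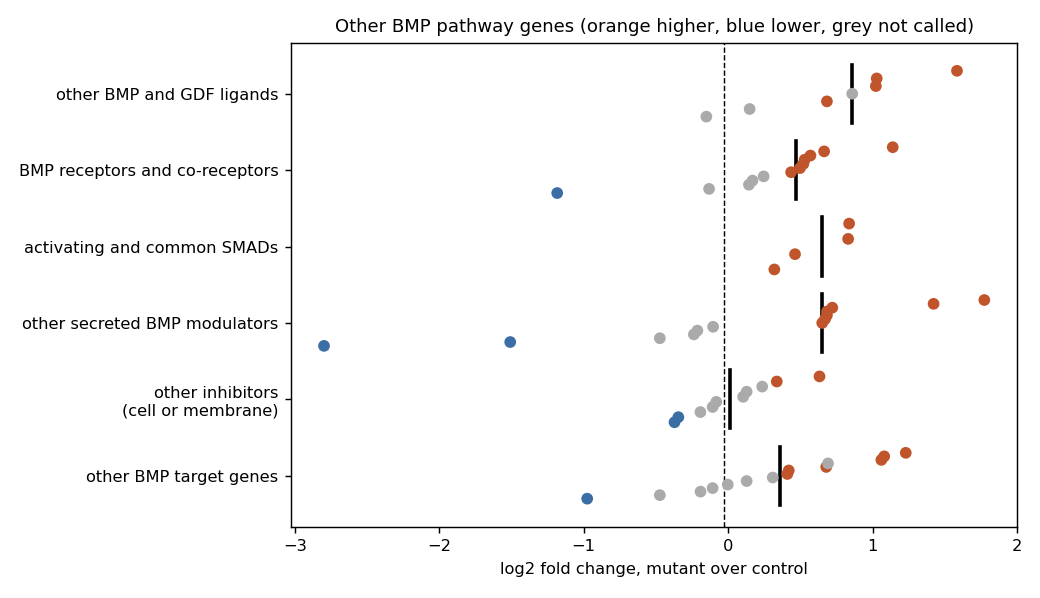
Log2 fold change of each other pathway gene in the table, 1 point per gene in each list. Genes that stand in more than 1 list are drawn in each. Black bars are list medians, and the dashed line is the median of all genes (-0.03). The 4 SMAD genes all lie right of 0, and the inhibitors of the last but one list are spread around 0 with a median of 0.01.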

How the data were processed

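Total RNA (1 µg) of E17.5 kidneys was depleted of ribosomal RNA, per the labels' protocols. The submitters' processing notes name mm10 and bedtools. Aligner, annotation and use of strand are not given in the sources used here. What the authors deposited is a coverage signal per gene, scaled to nearly equal totals. In each library low values fell on whole multiples of 1 step (within 0.02 of a step), which gave the bases before scaling. The number of reads is unknown. The deposited ratio is mutant over control mean. The deposited p-value and q-value are the authors', and calls here do not use them.

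Columns were assigned to groups, not animals, with each kidney as 1 replicate. Litter and sex are not given in the labels, so p-values measure the spread between these kidneys. Values were tested as log2(value + 1) with limma 3.58.1 in R 4.3.3 (variance trend, two-sided) and adjusted by Benjamini-Hochberg over 13203 genes. The filter (above 1 in at least 3 libraries) removed 0 genes. The script was tested on simulated data. Ratios within a library had exact two-sided permutation tests. Of the 11 ratios 9 were chosen after values were seen, as were the ratios to marker sums, and none can pass an adjustment at 3 against 3. Members and lists were chosen with earlier results of these data known. Other genes were named as the up to 4 called genes of a list with the largest change. Bmpr1a, Bmpr1b, Bmpr2, Smad7 and Id4 were named after their values were seen. Coordinates and exon lengths are from GENCODE M21 (mm10), promoter windows from RefSeq (7 of the 10 genes). Alternatives covered pseudocount, scaling, filter, trend, weights and leaving out each library.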

Additional observations from a re-analysis of the deposited data

How the results depend on the processing

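Among 133 refits of the 9 genes, 131 kept direction where called and their side of the threshold, and the other 2 lost a call. Without con1, Bmp2 was at -1.34 (adjusted p = 0.0627), over a range of -1.61 to -1.08 when each library was left out in turn. Without mut2, Bmp5 was at 1.24 (adjusted p = 0.0566), over a range of 1.24 to 1.95. The number of the 9 genes that rose was therefore 1 to 2 when a library was left out, and the number that fell 1 to 2. With only genes of a mean of at least 10000 scaled bases, Bmp2 and Bmp5 were not tested, which left 1 gene that rose and 1 that fell. A pseudocount of 1000 gave -0.98 for Bmp2 and 1.15 for Bmp5. Bmp7 ranged from -1.13 to -0.97 and Id3 from 0.52 to 0.78 when each library was left out. The ratios planned for Grem1 were not run, since Grem1 was not analysed here. No paired analysis was possible because the table columns carry no number that pairs a mutant with a control kidney.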

Other observations

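The genes most like Bmp7 over the 6 libraries, by the mean absolute distance of log2 values centred on the control mean among 13202 other genes, were Slc4a4, a bicarbonate cotransporter gene (distance 0.04, 162 kb in control and 78.3 kb in mutant by mean), and Rbm47, an RNA-binding protein gene (0.05, 213 and 107 kb). The genes most like Bmp4 were Telo2 (0.05, 36.7 and 35.0 kb) and Cdk5 (0.06, 28.8 and 26.8 kb).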
